A study of Mus musculus with 9 samples.

Results

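Presynaptic vesicle and release genes were followed in hippocampal RNA of lupus-prone mice. The group was a fixed list of 10 genes, Syp, Syn1, Syn2, Snap25, Vamp2, Syt1, Stx1a, Slc17a7, Bsn and Pclo, chosen by name for their roles in the nerve terminal. This list and the gene lists below were chosen with earlier results of these data known. Counts over them, beside the share of all genes, are therefore descriptions and not independent tests. All 10 were found among the 47643 genes of the deposited matrix of raw read counts, after its Ensembl identifiers were matched to GENCODE symbols of GRCm38. All 10 passed the filter on low counts in each of the 3 comparisons below.

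A nerve terminal stores transmitter in small synaptic vesicles, which are filled by transporters in their membrane and held in clusters by synapsins. Release takes place at the active zone, where a SNARE protein of the vesicle pairs with SNARE proteins of the plasma membrane and a calcium sensor on the vesicle triggers fusion. In the hippocampus most of these terminals belong to glutamatergic principal neurons, and the remainder belong mainly to GABAergic interneurons and to fibres from outside.

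The study sequenced poly-A RNA of the hippocampus from 3 MRL/mpj mice, the controls, and 3 MRL/lpr mice, which carry the lpr mutation of Fas in every cell and develop lupus spontaneously. The labels add 3 libraries of a group treated with mesenchymal stem cells (MRL/lpr+MSC), and the label of the MRL/lpr mice without cells is untreated where the series title gives them PBS. All 9 libraries came from mice in postnatal week 6. The labels call the MRL/mpj libraries wild type and name C57BL/6 as the strain of all 9 libraries, whereas the series title and the study's methods name MRL strains, and the latter are used here. The labels do not give the dose, route or source of the stem cells. Nothing in the labels says that the 3 libraries of the MRL/lpr+MSC group came from separate mice, so p-values measure the spread between these libraries only.

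The labels were checked before any comparison. In the study's own table of all genes, the columns headed MRL/lpr were constant multiples of the libraries labelled MRL/lpr+MSC and not of those labelled MRL/lpr, while the MRL/mpj columns followed their own libraries. The labels were kept, and a group name below means the libraries labelled so. Were the groups exchanged, each result against MRL/mpj mice below would belong to the other group. Each difference between MRL/lpr+MSC and MRL/lpr mice would then change its sign. Among genes at least 16-fold lower in MRL/lpr libraries than in the controls, 25 of 25 were on the MRL/lpr side of the midpoint in each library labelled MRL/lpr+MSC. Of 70 genes at least 16-fold higher, 32, 40 and 53 were on that side in MRL/lpr+MSC replicates 1, 2 and 3. These genes were chosen by their difference between MRL/lpr and MRL/mpj libraries, so only the values of the MRL/lpr+MSC libraries carry information. MRL/lpr+MSC replicate 1 is named here because it stood apart from its group for every gene of the list, and results on the 10 genes and the lists in its comparison with MRL/mpj mice are given with and without it.

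Libraries held between 19475804 and 26912031 counted reads. The lowest count of any of the 10 genes in any library was 918, for Stx1a in MRL/lpr replicate 3. Levels are given as CPM, counts scaled to the library size after TMM normalisation, for comparison between libraries. FPKM, which also divide by the length of the gene, were used to compare levels between genes.

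In MRL/mpj hippocampus the highest level per length was that of Slc17a7, the vesicular glutamate transporter VGLUT1, at 539 ± 62.2 FPKM (SD, n = 3). Snap25, a SNARE of the plasma membrane, followed at 307 ± 39.6 FPKM (SD, n = 3), and Vamp2, the SNARE of the vesicle, at 236 to 255 FPKM in the 3 libraries. The next levels were those of the calcium sensor Syt1, 173 ± 19.0 FPKM (SD, n = 3), the synapsin Syn1, 137 ± 14.3 FPKM (SD, n = 3), and the vesicle membrane protein Syp, 132 ± 13.3 FPKM (SD, n = 3). The ranges of Syn1 and Syp overlapped, so their order was not resolved. Syn2 had 86.9 ± 12.3 FPKM (SD, n = 3). The scaffold gene Bsn had 33.9 ± 1.41 FPKM (SD, n = 3) and Stx1a, the second SNARE of the plasma membrane, 27.7 ± 4.91 FPKM (SD, n = 3), and these ranges also overlapped. Pclo, the partner scaffold of Bsn, was lowest at 13.7 ± 0.724 FPKM (SD, n = 3).

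Setting MRL/lpr beside MRL/mpj mice asked how the lupus-prone genotype differs from its control. All 10 genes were lower in each MRL/lpr library than in each MRL/mpj library, where 18.6% of the 16697 genes tested were lower with no overlap. All 10 also had an unadjusted p under 0.05 from limma voom, against 14.7% of genes with such a p and a lower level. After Benjamini-Hochberg adjustment over all genes, an adjusted p under 0.05 (a call) was reached by 1 of the 10, Syt1, against 4.97% of genes called lower. With at least a 1.5-fold change, 0 of the 10 were called, against 5.79% of genes called in either direction. In that way limma-trend also called 0, against 7.92% of genes, and library quality weights called 3. Quality weights, tried after the data were seen, called all 10 lower at an adjusted p under 0.05, beside 1678 of the 16697 genes, and for the 1.5-fold count of 3 the share of genes was 12.4%. The median log2 fold change was -0.52 over the 10 genes and 0.02 over all genes tested. In bulk tissue, fewer cells of a type and less RNA per cell cannot be told apart.

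These counts depended on single libraries. Without MRL/lpr replicate 2, 9 of the 10 genes were called lower, against 8.87% of genes, and Vamp2 was the exception (adjusted p = 0.0511 by limma voom with Benjamini-Hochberg adjustment). Without MRL/lpr replicate 3, Syt1 and Vamp2 were called, against 5.14% of genes. No gene of the list was called without MRL/mpj replicate 1, 2 or 3 or without MRL/lpr replicate 1, when 0.969%, 0.976%, 0.618% and 1.36% of genes were called lower. Scaling by the total count alone, without TMM, moved the median of all genes to 0.15 and that of the list to -0.39. All 10 genes kept a negative log2 fold change under each of the 4 scalings tried. The share of lower genes among all called, 53.4% with TMM, was 26.8% by total count and 43.2% by upper quartile scaling.

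**Figure D1:**
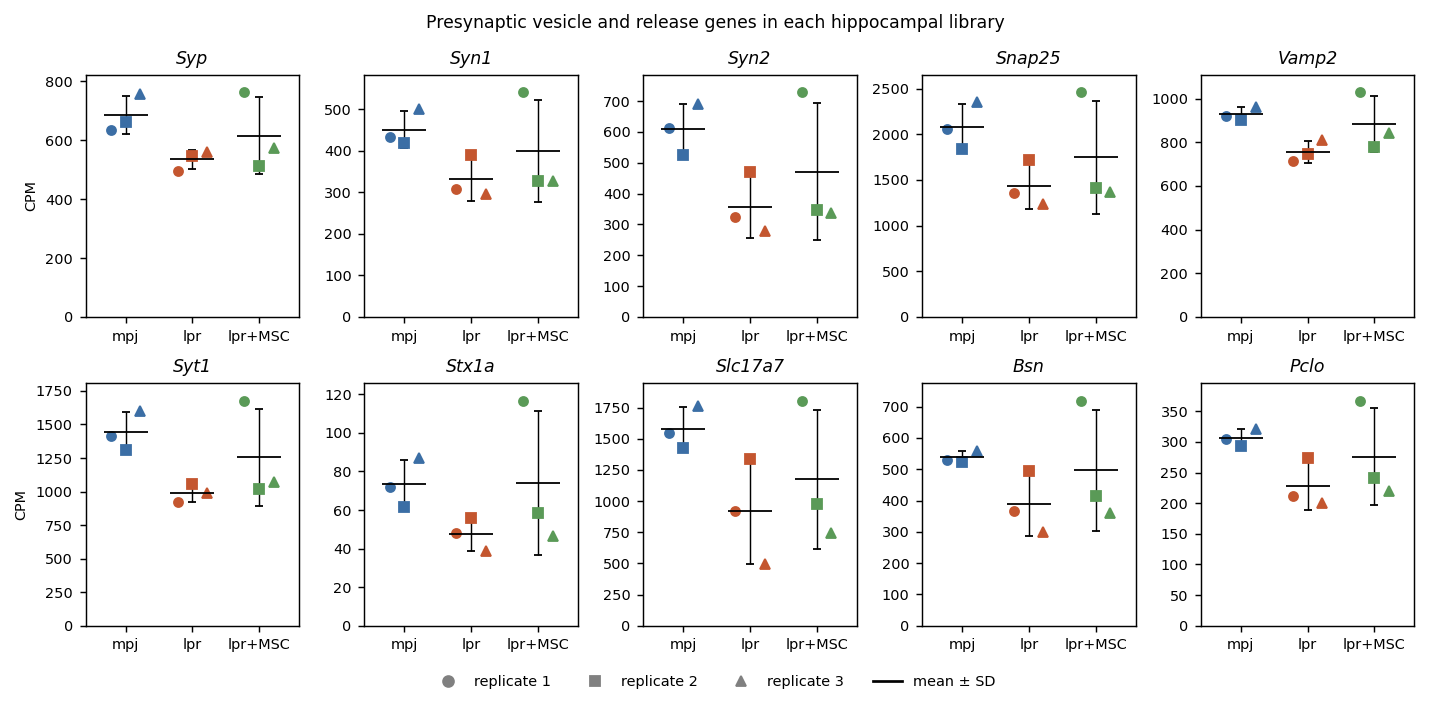
CPM of each of the 10 genes in each library (y axis, from 0), by group (x axis), with 1 point per library, the replicate shown by the marker, and the mean ± SD of 3 libraries in black. The 3 MRL/lpr libraries lie below the 3 MRL/mpj libraries in each panel, and MRL/lpr+MSC replicate 1 lies above all of them.

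Among the proteins of the vesicle, Syt1 (ENSMUSG00000035864, chromosome 10, 108497650 to 109010982, minus strand), the calcium sensor of fast release, had 1414, 1311 and 1603 CPM in MRL/mpj replicates 1, 2 and 3. The MRL/lpr replicates had 920, 1056 and 986 CPM. The highest MRL/lpr library was thus below the lowest MRL/mpj library, and both groups were tight. Syt1 fell from 1442 ± 148 CPM (SD, n = 3) to 988 ± 68.4 CPM (SD, n = 3), which is -0.54 in log2 (SE, its standard error, 0.10, adjusted p = 0.0243 by limma voom with Benjamini-Hochberg adjustment). With 1 library left out at a time, the log2 fold change ran from -0.61 to -0.46. The adjusted p ran from 0.0125 to 0.0976, and it was under 0.05 only without MRL/lpr replicate 2 or 3. With all 9 libraries in one fit the log2 fold change was again -0.54, but Syt1 was not called (adjusted p = 0.0900 by limma voom with Benjamini-Hochberg adjustment).

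Vamp2 (ENSMUSG00000020894, chromosome 11, 69088490 to 69092384, plus strand), whose product is the vesicle's own SNARE, had 921, 901 and 963 CPM in MRL/mpj replicates 1, 2 and 3. The MRL/lpr replicates had 712, 747 and 812 CPM. This was the smallest of the 10 differences with all libraries, a log2 fold change of -0.29 (SE 0.07, adjusted p = 0.0555 by limma voom with Benjamini-Hochberg adjustment). Syp (ENSMUSG00000031144, chromosome X, 7638471 to 7653256, plus strand) encodes synaptophysin, an abundant membrane protein of the vesicle that binds the Vamp2 product. It had 635, 663 and 757 CPM in MRL/mpj replicates 1, 2 and 3 and 497, 548 and 560 CPM in the MRL/lpr replicates. Its log2 fold change was -0.35 (SE 0.09, adjusted p = 0.0574 by limma voom with Benjamini-Hochberg adjustment). Scaled by total count alone, the log2 fold change was smaller for both, -0.16 for Vamp2 and -0.22 for Syp, and neither was called. For Syp and Vamp2 the highest MRL/lpr library was replicate 3, and for the other 8 genes it was replicate 2.

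Synapsins coat the vesicle and tie it to its neighbours and to actin until they are phosphorylated during activity. Syn1 (ENSMUSG00000037217, chromosome X, 20860511 to 20921004, minus strand) had 432, 420 and 501 CPM in MRL/mpj replicates 1, 2 and 3 and 308, 390 and 295 CPM in the MRL/lpr replicates. Its log2 fold change was -0.45 (SE 0.13, adjusted p = 0.0687 by limma voom with Benjamini-Hochberg adjustment). Syn2 (ENSMUSG00000009394, chromosome 6, 115134902 to 115282006, plus strand) had 613, 525 and 689 CPM in the MRL/mpj replicates and 324, 471 and 278 CPM in the MRL/lpr replicates. MRL/lpr replicate 2 was close to the lowest MRL/mpj library, and replicates 1 and 3 were far below it. The log2 fold change of Syn2 was -0.79 (SE 0.21, adjusted p = 0.0615 by limma voom with Benjamini-Hochberg adjustment), and it was -1.01 without MRL/lpr replicate 2 and -0.63 without MRL/lpr replicate 3. The third synapsin gene, Syn3, was far less abundant and had between 10.7 and 15.5 CPM in the 6 libraries, with overlapping groups (log2 fold change -0.10, SE 0.15).

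Slc17a7 (ENSMUSG00000070570, chromosome 7, 45163949 to 45176142, plus strand) loads glutamate into the vesicles of most hippocampal principal neurons. It had 1547, 1429 and 1766 CPM in MRL/mpj replicates 1, 2 and 3 and 920, 1339 and 493 CPM in the MRL/lpr replicates. The MRL/lpr libraries were thus spread over a wide range, with a coefficient of variation of 46.1% against 10.8% in MRL/mpj mice, and replicate 3 was the lowest of all 9. The log2 fold change of -0.89 was the largest of the 10 and the least certain (SE 0.35, adjusted p = 0.142 by limma voom with Benjamini-Hochberg adjustment). Without MRL/lpr replicate 3 it was -0.50, a smaller difference than the -0.63 of Syn2, and without MRL/lpr replicate 2 it was -1.22.

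Of the SNAREs of the plasma membrane, Snap25 (ENSMUSG00000027273, chromosome 2, 136713453 to 136782428, plus strand) had 2053, 1843 and 2349 CPM in MRL/mpj replicates 1, 2 and 3. The MRL/lpr replicates had 1354, 1723 and 1235 CPM. Replicate 2 of MRL/lpr lay just under the MRL/mpj range, and the log2 fold change was -0.54 (SE 0.15, adjusted p = 0.0652 by limma voom with Benjamini-Hochberg adjustment). Stx1a (ENSMUSG00000007207, chromosome 5, 135023482 to 135051100, plus strand), a syntaxin that forms the fusion complex with the Snap25 and Vamp2 products, had 72.1, 61.8 and 86.8 CPM in the MRL/mpj replicates. It had 47.8, 55.9 and 38.8 CPM in the MRL/lpr replicates. Its log2 fold change was -0.62 (SE 0.17, adjusted p = 0.0661 by limma voom with Benjamini-Hochberg adjustment).

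Bsn and Pclo encode bassoon and piccolo, very large scaffolds of the active zone that organise the vesicle cluster. Bsn (ENSMUSG00000032589, chromosome 9, 108096022 to 108190384, minus strand) had 531, 525 and 560 CPM in MRL/mpj replicates 1, 2 and 3 and 367, 496 and 300 CPM in the MRL/lpr replicates. Pclo (ENSMUSG00000061601, chromosome 5, 14514918 to 14863459, plus strand) had 306, 293 and 321 CPM in the MRL/mpj replicates and 211, 274 and 200 CPM in the MRL/lpr replicates. The control group was tight for both genes, with coefficients of variation of 3.47% for Bsn and 4.63% for Pclo, against 25.6% and 17.6% in MRL/lpr mice. The log2 fold change was -0.50 for Bsn (SE 0.17, adjusted p = 0.113 by limma voom with Benjamini-Hochberg adjustment). It was -0.43 for Pclo (SE 0.12, adjusted p = 0.0710 from the same limma test).

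The levels of the 10 genes were mostly correlated from library to library. Their summed level was 8523, 7971 and 9597 CPM in MRL/mpj replicates 1, 2 and 3, and 5660, 7101 and 5198 CPM in the MRL/lpr replicates. Replicate 3 was the highest MRL/mpj library for all 10 genes, and replicate 2 was the lowest for 9 of them, Syp excepted. In MRL/lpr mice replicate 3 was the lowest library for 7 genes, and replicate 1 was the lowest for Syp, Vamp2 and Syt1. As a description, Pearson's r of log2 CPM over the 9 libraries had a median of 0.938 over the 45 pairs of genes, from 0.593 for Vamp2 with Slc17a7 to 0.996 for Syn2 with Snap25. With each value taken as the deviation from its group mean, the median was 0.908, from 0.303 to 0.995 for the same pairs. Without MRL/lpr+MSC replicate 1, r over 8 libraries had a median of 0.925, from 0.485 to 0.996. As deviations from the group mean the median was 0.791, from -0.58 for Vamp2 with Slc17a7 to 0.986, so within groups not every pair moved together. The pairs share libraries, so these values are not independent.

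The libraries labelled MRL/lpr+MSC did not form a tight group for these genes. Their summed level was 10192, 6095 and 5889 CPM in replicates 1, 2 and 3. For all 10 genes replicate 1 was above every MRL/mpj library, and replicates 2 and 3 were below every MRL/mpj library. Syt1, for example, had 1673, 1021 and 1074 CPM, and Stx1a had 116, 58.6 and 46.4 CPM. Slc17a7 had 1802, 980 and 742 CPM, and replicate 3 was again the lowest library of its group.

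The other 7 genes had the same shape in MRL/lpr+MSC replicates 1, 2 and 3. Of the vesicle genes, Syp had 762, 512 and 574 CPM, Vamp2 1028, 779 and 841 CPM, Syn1 540.3, 328 and 327 CPM and Syn2 728, 348 and 337 CPM. Snap25 of the plasma membrane had 2457, 1413 and 1367 CPM, and of the active zone Bsn had 717, 414 and 359.6 CPM and Pclo 366, 241 and 221 CPM. Replicate 1 was the only high library for each of them.

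Against MRL/mpj mice, 0 of the 10 genes were called by limma voom in MRL/lpr+MSC mice, and 0 had no overlap, where 2.54% of the 16196 genes tested were called lower and 14.4% were lower with no overlap. An unadjusted p under 0.05 was also reached by 0 of the 10, against 10.7% of genes with such a p and a lower level. With at least a 1.5-fold change, 0 of the 10 and 3.43% of genes were called. limma-trend and library quality weights likewise called 0 of the 10, beside 893 and 2072 genes in all. The log2 fold change was -0.16 for Syp, -0.21 for Syn1, -0.45 for Syn2, -0.30 for Snap25, -0.08 for Vamp2, -0.23 for Syt1, -0.09 for Stx1a, -0.52 for Slc17a7, -0.17 for Bsn and -0.18 for Pclo. Its median was -0.20 over the list and 0.01 over all genes, and -0.37 over the list with quality weights. Without MRL/lpr+MSC replicate 1 the median was -0.46, and 8 of the 10 genes, all but Vamp2 and Stx1a, were called lower, against 7.57% of genes. That library was singled out by its values of these same genes, so the count without it is a description and not a test. Without replicate 2 or 3 of that group the median was -0.11 or -0.12. In both cases 0 of the 10 were called, when 1.26% and 0.936% of genes were called lower. Without replicate 3 Stx1a had 0.17 and Bsn 0.01. Of all genes called in this comparison, 50.6% were lower with TMM and 37.7% when scaled by total count.

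Without replicate 1, Slc17a7 had a log2 fold change of -0.88 (SE 0.14), against -0.52 (SE 0.31) with it. Syn2 had -0.82 (SE 0.11), against -0.45 (SE 0.30) with it. The others without it were -0.33 for Syp, -0.45 for Syn1, -0.57 for Snap25, -0.19 for Vamp2, -0.45 for Syt1, -0.47 for Stx1a, -0.48 for Bsn and -0.41 for Pclo. Leaving out replicate 1 leaves 2 libraries in the group. With all libraries the 95% confidence interval of each of the 10 log2 fold changes included 0, and the widest was that of Stx1a, from -0.88 to 0.70. The comparison shares its control libraries with that of MRL/lpr mice.

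The comparison of MRL/lpr+MSC with MRL/lpr mice asked what the stem cells changed. By limma voom, 0 of the 10 genes were called higher, as were 0% of the 16758 genes tested. A change of 1.5-fold or more was likewise called for 0 of the 10 and 0% of genes. An unadjusted p under 0.05 was reached by 0 of the 10 and by 647 genes in all. Of these, 205 were higher, which is 1.22% of genes tested, and the larger part was lower. Were the groups exchanged, these directions and the signs below would turn. limma-trend and library quality weights also called 0 genes. The log2 fold changes of the list ran from 0.19 for Syp to 0.54 for Stx1a, with a median of 0.29 and one near 0 over all genes. Without MRL/lpr+MSC replicate 1 the median was 0.02, and the values ran from -0.04 for Snap25 to 0.15 for Stx1a. Slc17a7 was also near 0 without MRL/lpr replicate 3, at -0.01. The intervals were wide. The widest was that of Slc17a7, from -0.71 to 1.48, and the narrowest that of Vamp2, from -0.09 to 0.53. That of Stx1a ran from -0.29 to 1.37.

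**Figure D2:**
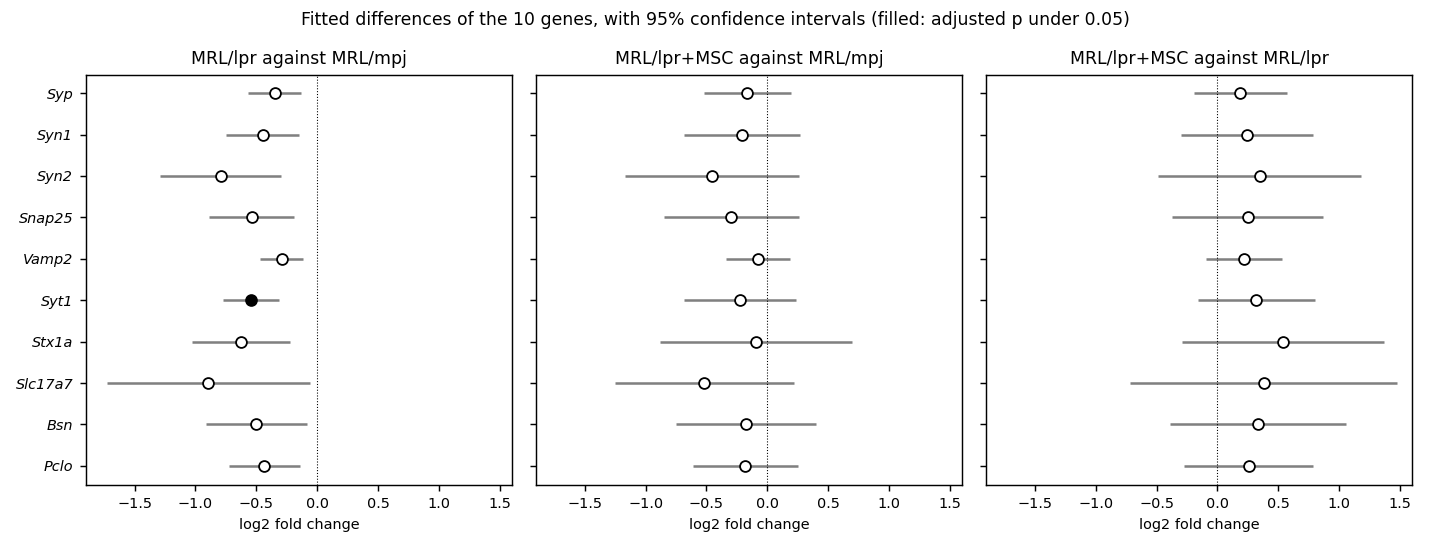
Log2 fold change of each of the 10 genes (x axis) in the 3 comparisons, with the 95% confidence interval as a bar and a filled point where the adjusted p of limma voom is under 0.05. The only filled point is Syt1 in MRL/lpr against MRL/mpj mice, at -0.54.

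Other presynaptic genes were listed by role and described in the same fit. Of 20 further synaptic vesicle proteins, 2 were called lower and 1 higher when MRL/lpr was set beside MRL/mpj, and the list's median was -0.22 (log2). For this list and those below, 4.97% of all genes tested were called lower and 4.33% higher in that comparison, and 2.54% and 2.48% in MRL/lpr+MSC against MRL/mpj mice. Rab27b, a small GTPase of secretory vesicles, fell from 45.6, 45.3 and 52.6 CPM in MRL/mpj replicates 1, 2 and 3 to 33.2, 32.8 and 38.3 CPM in the MRL/lpr replicates (adjusted p = 0.0362 by limma voom with Benjamini-Hochberg adjustment). Syt12, a synaptotagmin, went from 21.1, 23.6 and 27.3 CPM to 17.5, 16.4 and 16.5 CPM, a log2 fold change of -0.50 (SE 0.11, adjusted p = 0.0429 from the same limma test). Sv2c, a vesicle glycoprotein most abundant in the basal ganglia, rose from 45.4, 47.5 and 32.4 CPM to 64.1, 81.3 and 110 CPM (adjusted p = 0.0480 by limma voom with Benjamini-Hochberg adjustment). Sv2c thus moved against the 10 genes of the main list.

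Of 19 genes of the fusion machinery, 2 were called lower and 0 higher, with a median of -0.24. They were Snap47, a relative of Snap25 that went from 268, 282 and 293 CPM to 199, 224 and 222 CPM, with a log2 fold change of -0.38 (SE 0.07, adjusted p = 0.0285 by limma voom with Benjamini-Hochberg adjustment), and Unc13a, which encodes the priming factor Munc13-1. Unc13a fell from 460, 461 and 460 CPM in MRL/mpj replicates 1, 2 and 3 to 351, 399 and 330 CPM in the MRL/lpr replicates (adjusted p = 0.0460 by limma voom with Benjamini-Hochberg adjustment).

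Of 15 active zone genes, 2 were called lower and 0 higher, with a median of -0.19. Apba1, an adaptor protein of the terminal, went from 210.5, 196 and 198 CPM to 145, 150.2 and 155 CPM, a log2 fold change of -0.42 (SE 0.06, adjusted p = 0.0146 by limma voom with Benjamini-Hochberg adjustment). Cacna1b, the pore of the N-type calcium channel, went from 128, 129 and 146 CPM to 96.4, 109.9 and 105 CPM, or -0.37 (SE 0.08, adjusted p = 0.0388 from the same limma test). Rims1, a scaffold that binds Rab3 and Munc13, had a log2 fold change of -0.29 (SE 0.11) with no overlap and was not called. Of 14 genes of vesicle endocytosis, 1 was called lower and 0 higher, with a median of -0.24. It was Synj1, a lipid phosphatase that helps strip clathrin from new vesicles, and went from 443, 425 and 506 CPM to 339.6, 375 and 327 CPM, or -0.40 (SE 0.09, adjusted p = 0.0457 by limma voom with Benjamini-Hochberg adjustment). Of 12 other vesicular transporters and proton pump subunits, 1 was called lower and 0 higher, with a median of -0.21. It was the pump subunit Atp6v1h, which went from 137, 139 and 147 CPM to 106, 112 and 112 CPM, or -0.35 (SE 0.06, adjusted p = 0.0233 by limma voom with Benjamini-Hochberg adjustment).

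In MRL/lpr+MSC against MRL/mpj mice, 1 gene of these 5 lists was called. Rims3, a short relative of Rims1, rose from 38.5, 39.0 and 42.9 CPM to 79.8, 68.5 and 124 CPM (log2 fold change 1.14, SE 0.22, adjusted p = 0.0375 by limma voom with Benjamini-Hochberg adjustment). It was thus higher in all 3 MRL/lpr+MSC libraries, replicate 1 included, and had 1.21 (SE 0.28) without that library. The medians of the lists were -0.09 for vesicle proteins, -0.13 for fusion machinery, 0.03 for the active zone, -0.08 for endocytosis and -0.06 for transporters and pump subunits, of which 11 of 12 were tested. Between MRL/lpr+MSC and MRL/lpr mice, limma voom called 0 genes of these lists, and the medians ran from 0.12 to 0.21. Without MRL/lpr+MSC replicate 1 the medians against MRL/mpj mice were -0.16, -0.23, -0.14, -0.16 and -0.23 in the order above, and 5, 6, 3, 5 and 3 genes were called lower and 2, 1, 2, 0 and 2 higher, against 7.57% and 8.80% of all genes.

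The transporter that fills a vesicle marks the kind of neuron, and the other transporters differed in whether they followed Slc17a7. Slc17a6, the glutamate transporter VGLUT2 of thalamic and other subcortical neurons, had 15.0, 18.9 and 16.5 CPM in MRL/mpj replicates 1, 2 and 3, 43.5, 16.0 and 55.1 CPM in the MRL/lpr replicates and 16.3, 41.8 and 55.4 CPM in the MRL/lpr+MSC replicates. Slc32a1, the vesicular transporter of GABA, had 58.5, 57.5 and 64.7 CPM, 93.9, 41.6 and 230 CPM, and 57.5, 92.3 and 183 CPM in the same order. Slc17a6 and Slc32a1 were highest in libraries in which Slc17a7 was low, MRL/lpr replicate 3 and MRL/lpr+MSC replicate 3. Neither was called, with overlapping groups between MRL/lpr and MRL/mpj libraries and log2 fold changes of 1.02 for Slc17a6 (SE 0.51) and 0.69 for Slc32a1 (SE 0.58). Slc17a8, the third glutamate transporter of this family, was rare. It had 6.29, 8.85 and 10.99 CPM in MRL/mpj replicates 1, 2 and 3, 4.93, 6.46 and 3.89 CPM in the MRL/lpr replicates and 10.8, 5.90 and 5.22 CPM in the MRL/lpr+MSC replicates. Like Slc17a7 it was lowest in MRL/lpr replicate 3 and high in MRL/lpr+MSC replicate 1, but the MRL/lpr and MRL/mpj groups overlapped (log2 fold change -0.76, SE 0.26, unadjusted p = 0.0242 from limma). Slc18a2 and Slc18a3, the monoamine and acetylcholine transporters, were picked after the values were seen as the 2 of the list that were higher in every MRL/lpr library than in every MRL/mpj library. Slc18a2 had 5.89, 5.80 and 7.29 CPM in the MRL/mpj replicates, 12.7, 8.27 and 15.5 CPM in the MRL/lpr replicates and 5.60, 10.7 and 14.3 CPM in the MRL/lpr+MSC replicates (log2 fold change 0.92 in MRL/lpr mice, SE 0.28). Slc18a3 was at or near 0 in the MRL/mpj replicates. It had 0.559, 3.06 and 5.07 CPM in the MRL/lpr replicates and 0.156, 0.278 and 5.04 CPM in the MRL/lpr+MSC replicates. It passed the filter of that comparison through the MRL/lpr libraries alone, so no fold change is given for it. Neither Slc18a2 nor Slc18a3 was called.

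**Figure D3:**
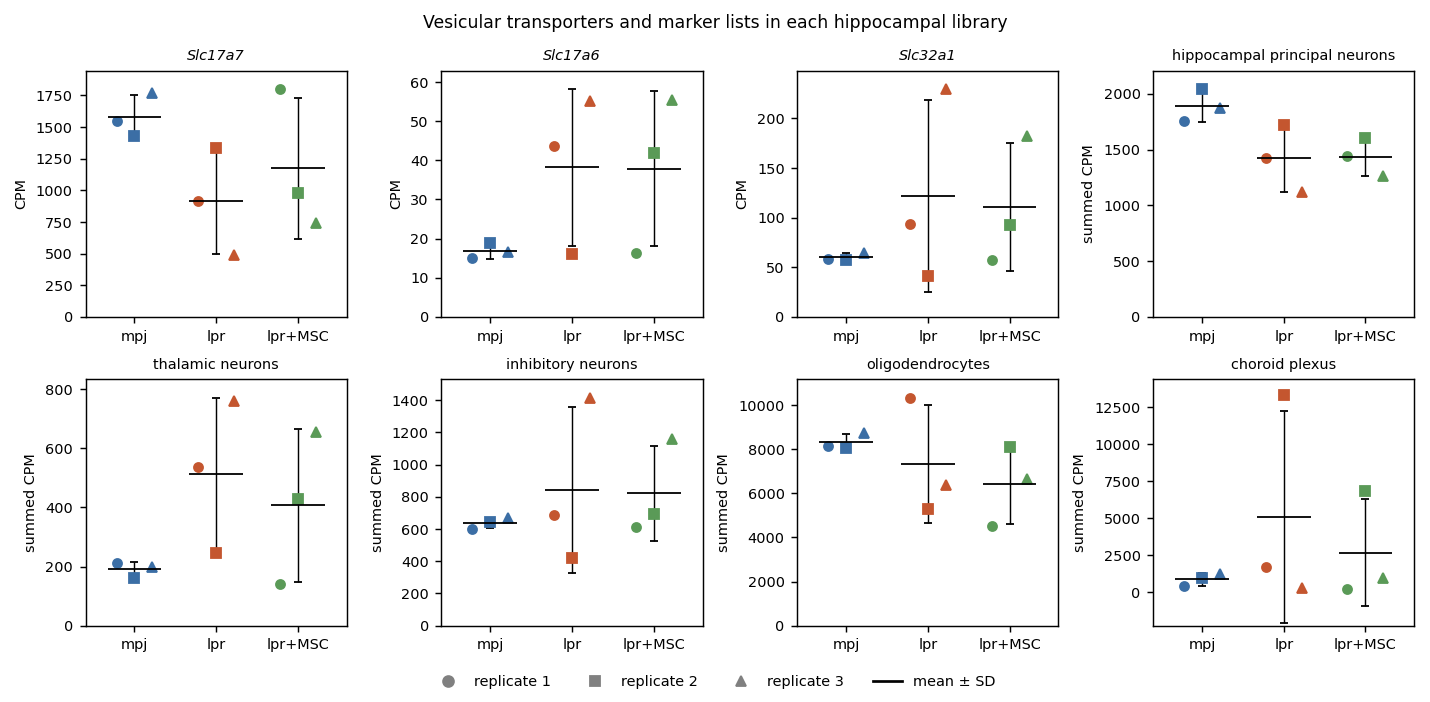
CPM of 3 vesicular transporter genes and summed CPM of 5 marker lists in each library (y axes), by group (x axes), with 1 point per library, the replicate shown by the marker, and the mean ± SD of 3 libraries in black. MRL/lpr replicate 3, lowest for Slc17a7 at 493 CPM, was highest for Slc32a1 at 230 CPM and for the summed inhibitory and thalamic lists. Neither of these lists moved as one, and a few genes made up most of each sum.

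Markers of cell types and regions differed between libraries of the same group, and their part in the results above was not tested. The tissue label is hippocampus, and of 12 markers of hippocampal principal neurons none was at 0 in any library. Their summed level was 1757, 2044 and 1874 CPM in MRL/mpj replicates 1, 2 and 3, 1422, 1722 and 1119 CPM in the MRL/lpr replicates and 1440, 1600 and 1260 CPM in the MRL/lpr+MSC replicates. Every MRL/lpr and MRL/lpr+MSC library was thus below every MRL/mpj library. Between MRL/lpr and MRL/mpj libraries 2 of the 12 were called lower and 0 higher, with a median of -0.31. They were Fibcd1, which went from 129.8, 147 and 153 CPM to 68.2, 57.8 and 72.5 CPM, with a log2 fold change of -1.11 (SE 0.11, adjusted p = 0.00370 by limma voom with Benjamini-Hochberg adjustment), and Spink8, which went from 21.7, 18.9 and 17.5 CPM to 12.3, 10.6 and 11.5 CPM, or -0.74 (SE 0.12, adjusted p = 0.0184 from the same limma test). The most abundant per length, Neurod6, had 238, 260 and 288 CPM in MRL/mpj replicates 1, 2 and 3, 158, 187 and 80.1 CPM in the MRL/lpr replicates, and 255, 190 and 129 CPM in the MRL/lpr+MSC replicates. Like Slc17a7, it was lowest of all in MRL/lpr replicate 3 and highest of its group in MRL/lpr+MSC replicate 1. The list did not move as one in the latter library. Picked after the values were seen, Grik4 and Rgs14 were also highest of their group there. Prox1, Wfs1 and Dsp, also picked afterwards, were lowest of their group there. Prox1 had 102, 160 and 144 CPM, Wfs1 151, 257 and 213 CPM and Dsp 37.2, 89.2 and 81.0 CPM in the MRL/lpr+MSC replicates. In MRL/lpr+MSC against MRL/mpj mice Fibcd1 alone was called, at 80.9, 92.7 and 75.0 CPM in the treated libraries, with a log2 fold change of -0.79 (SE 0.10, adjusted p = 0.00876 by limma voom with Benjamini-Hochberg adjustment), and the median of the list was -0.43. With MRL/lpr+MSC replicate 1 left out the latter was -0.50, with Fibcd1 at -0.78 and 4 of the 12 called lower, against 7.57% of genes.

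The summed level of 8 thalamic markers was 211, 162 and 198 CPM in MRL/mpj replicates 1, 2 and 3, 538, 246 and 758 CPM in the MRL/lpr replicates and 139, 427 and 656 CPM in the MRL/lpr+MSC replicates. It was high in most libraries with low summed levels of the 10 genes and low in MRL/lpr+MSC replicate 1, but the list did not move as one. Picked after the values were seen, Zic1 had 30.6, 21.3 and 14.9 CPM in the MRL/mpj replicates and 206, 62.4 and 349 CPM in the MRL/lpr replicates and made up much of the sum. Rora (-0.28) and Ramp3 (-0.63), also picked afterwards, had negative log2 fold changes between these groups. None of the 8 was at 0, and the most abundant per length, Calb2, ran from 6.10 CPM in MRL/mpj replicate 2 to 120 CPM in MRL/lpr replicate 3. Between MRL/lpr and MRL/mpj libraries 0 of the 8 were called by limma voom, with a median of 0.46. In MRL/lpr+MSC against MRL/mpj mice Calb2 alone was called higher, at 32.0, 69.4 and 104 CPM against 6.69, 6.10 and 10.4 CPM (log2 fold change 3.06, SE 0.63, adjusted p = 0.0472 by limma voom with Benjamini-Hochberg adjustment), with a median of 0.40. Leaving out MRL/lpr+MSC replicate 1 made the latter 0.70, with Calb2 at 3.52 and 3 of the 8 called higher, where 8.80% of all genes were.

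The summed level of 8 markers of inhibitory neurons was 602, 646 and 666 CPM in MRL/mpj replicates 1, 2 and 3, 687, 419 and 1416 CPM in the MRL/lpr replicates and 610, 695 and 1160 CPM in the MRL/lpr+MSC replicates. Replicate 3 of either lpr group was high, as it was for Slc32a1. Gad1 and Gad2, picked after the values were seen, made up most of that sum, with 597 and 565 CPM in MRL/lpr replicate 3, and had overlapping groups and log2 fold changes of 0.32 (SE 0.36) and 0.78 (SE 0.56). None of the 8 was at 0, and the most abundant per length, Sst, had 94.2, 112 and 122 CPM in the MRL/mpj replicates and 71.9, 39.1 and 121 CPM in the MRL/lpr replicates, of which only replicate 3 was within the control range (log2 fold change -0.64, SE 0.38). Between MRL/lpr and MRL/mpj libraries 3 of the 8 were called lower and 0 higher, with a median of -0.47. Pvalb, which marks fast-spiking basket cells, fell from 42.2, 45.7 and 51.1 CPM to 22.8, 23.5 and 23.6 CPM (adjusted p = 0.00339 by limma voom with Benjamini-Hochberg adjustment). Dlx1, picked after the values were seen, went the other way with 0.53 (SE 0.47) and was not called. Vip went from 13.6, 13.9 and 14.9 CPM to 6.78, 6.37 and 5.28 CPM, a log2 fold change of -1.19 (SE 0.13, adjusted p = 0.00621 from the same limma test). Npy went from 21.8, 28.4 and 27.6 CPM to 14.3, 16.4 and 16.7 CPM, or -0.72 (SE 0.13, adjusted p = 0.0254 from the same limma test). Of the MRL/lpr+MSC comparison with MRL/mpj mice, limma voom called 0 of the 8, with a median of -0.02. Without MRL/lpr+MSC replicate 1 the median was -0.06, with 3 called lower and 1 higher, against 7.57% and 8.80% of all genes.

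Of 12 markers shared by neurons, 1 was called lower and 0 higher when MRL/lpr was set beside MRL/mpj, and the list's median was -0.13 beside the -0.52 of the 10 presynaptic genes. Their summed level was 5171, 5041 and 5436 CPM in MRL/mpj replicates 1, 2 and 3, 4229, 4448 and 5029 CPM in the MRL/lpr replicates and 5786, 4582 and 5034 CPM in the MRL/lpr+MSC replicates. The called gene was Thy1, also the most abundant per length, which encodes a surface glycoprotein of projection neurons and fell from 655, 617 and 708 CPM to 463, 499 and 488 CPM (adjusted p = 0.0211 by limma voom with Benjamini-Hochberg adjustment). In MRL/lpr+MSC against MRL/mpj mice, limma voom called 0 of the 12, with a median of 0.07. Without MRL/lpr+MSC replicate 1 the median was -0.01, with 3 called lower, against 7.57% of all genes. MRL/lpr replicate 3 was thus just below the MRL/mpj range for the summed neuron markers and lowest of all libraries for the summed presynaptic level. The neuron markers did not move as one in that library. Picked after the values were seen, Gap43 had 255 CPM there against 72.3, 60.7 and 87.8 CPM in the MRL/mpj replicates. Rbfox3, also picked afterwards, had 220 CPM there against 318, 314 and 333 CPM.

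Choroid plexus markers were far higher in MRL/lpr replicate 2 than in its group. Their summed level was 417, 938 and 1271 CPM in MRL/mpj replicates 1, 2 and 3, 1724, 13301 and 270 CPM in the MRL/lpr replicates and 229, 6824 and 953 CPM in the MRL/lpr+MSC replicates. None of the 8 was at 0, and Ttr, the most abundant per length, had 8870 CPM in MRL/lpr replicate 2. By limma voom 0 of the 8 were called in either comparison with MRL/mpj mice, with medians of 1.61 and 0.84. The summed level of 8 striatal markers was 159, 179 and 175 CPM in the MRL/mpj replicates, 193, 237 and 194 CPM in the MRL/lpr replicates and 178, 231 and 277 CPM in the MRL/lpr+MSC replicates, with none at 0. Their medians were 0.52 and 0.80, and Rgs9 rose from 10.03, 5.63 and 7.29 CPM in MRL/mpj to 13.8, 15.1 and 14.2 CPM in MRL/lpr mice (log2 fold change 0.96, SE 0.19, adjusted p = 0.0310 by limma voom with Benjamini-Hochberg adjustment). The most abundant per length, Ppp1r1b, was highest in MRL/lpr replicate 2, at 107 CPM. Dropping MRL/lpr+MSC replicate 1 gave medians against MRL/mpj mice of 2.14 for choroid plexus and 1.05 for striatal markers, with 2 of 8 called higher in each. Of all genes, 8.80% were called higher in that fit.

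Among glial and vascular lists of 8 genes each, oligodendrocyte markers had no call by limma voom in either comparison with MRL/mpj mice, with medians of -0.25 and -0.43. Their summed level was 8157, 8075 and 8749 CPM in MRL/mpj replicates 1, 2 and 3, 10337, 5285 and 6378 CPM in the MRL/lpr replicates and 4503, 8090 and 6661 CPM in the MRL/lpr+MSC replicates. Their most abundant gene per length, Mbp, had 4850, 2604 and 3175 CPM in the MRL/lpr replicates and 2172, 3957 and 3299 CPM in the MRL/lpr+MSC replicates, and was lowest in MRL/lpr+MSC replicate 1. For astrocytes the medians were 0.06 and -0.01, with Sox9 called higher in both comparisons (log2 fold changes 1.30 and 1.09), and the most abundant gene per length, Slc1a2, ran from 2604 to 3633 CPM over the 9 libraries. Summed, the list had 5386, 5105 and 5006 CPM, 5448, 4390 and 5503 CPM, and 5531, 5629 and 5266 CPM in the same order of groups. For microglia the summed levels were 344, 319.8 and 314 CPM, 314, 257 and 246 CPM, and 263, 281 and 247 CPM, and the medians were -0.14 and -0.30. P2ry12, Fcrls and Cx3cr1 were called lower in MRL/lpr mice and Fcrls and Cx3cr1 in MRL/lpr+MSC mice. For endothelial cells the summed levels were 301, 259.6 and 259 CPM, 329, 344 and 336 CPM, and 385, 373 and 348 CPM, and the medians were 0.14 and 0.24, with Kdr and the most abundant gene per length, Cldn5, called higher in both comparisons. When MRL/lpr+MSC replicate 1 was dropped the medians against MRL/mpj mice were -0.22 for oligodendrocytes, 0.01 for astrocytes, -0.25 for microglia and 0.26 for endothelial cells, with 1 gene called lower, 2 higher, 3 lower and 2 higher. Of all genes, 7.57% were called lower and 8.80% higher in that fit. No gene of these lists was at 0 in any library. Between MRL/lpr+MSC and MRL/lpr mice limma voom called 0 genes of any marker list.

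Over the 9 libraries, the tested genes outside the list whose log2 CPM was most like the list's mean pattern were Dnm1, Snap91, Cntnap1, Hk1 and Amph. Pearson's r was 0.996, 0.995, 0.994, 0.993 and 0.992 in that order, the highest of 14819 genes whose mean level reached 1 CPM. Dnm1, the neuronal dynamin that pinches new vesicles off the membrane, had 1354, 1306 and 1564 CPM in MRL/mpj replicates 1, 2 and 3, 930, 1156 and 825 CPM in the MRL/lpr replicates and 1625, 985 and 988 CPM in the MRL/lpr+MSC replicates. As in the summed list, MRL/lpr+MSC replicate 1 was on top and MRL/lpr replicate 3 at the bottom. Snap91 and Amph encode clathrin adaptors of vesicle retrieval, Cntnap1 an axonal protein beside the node of Ranvier, and Hk1 a hexokinase. Over 8 libraries, without MRL/lpr+MSC replicate 1, the 5 genes ranked 1, 2, 4, 10 and 6 in the order given. Dnm1, Snap91 and Amph also belong to the list of endocytosis genes.

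The 10 genes lie on 8 chromosomes, with Syp and Syn1 on chromosome X and Stx1a and Pclo on chromosome 5. All are protein coding. Whether counting used strand was not stated, so reads of antisense neighbours cannot be told apart. Timp4 lies within Syn2 on the opposite strand, sharing exon sequence with it, and had a mean count of 847 per library, against at least 6573 for Syn2. Timp1 lies in an intron of Syn1 on the opposite strand and had a mean count of 14.2, and the 3′ end of Araf overlaps that of Syn1 from position 20860511 to 20860519 of chromosome X.

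The RefSeq sequence of GRCm38.p6 before the start sites of the 10 genes was searched for motifs. Whether promoters have a part in the correlation of these genes between libraries was not tested. Promoters were listed for 8 of the 10 genes, with 10 start sites, and Snap25 and Vamp2 were not listed. The 250 bases before each start were read on both strands. The full cAMP response element (CRE), TGACGTCA, was found in 1 of the 10, that of Syn1, and in 1.55% of 32851 promoters of the same length. The shorter CRE, TGACG, which the full form contains, was found before Syn1 and Stx1a and in 17.8% of all promoters. The GC box, GGGCGG, was found in 6 of the 10 and in 32.7% of all, and the E-box, CACGTG, in 0 of the 10 and in 6.02% of all. A match is a description of letters and not a bound site.

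Shown here are the sequences of Syt1, Slc17a7 and Syn1. With all libraries Syt1 was the only gene called and Slc17a7 had the largest difference, and Syn1 holds the full CRE. Capitals mark the GC box or the full CRE on either strand. The Syt1 stretch is chr10:109010976-109011225 on the minus strand. The Slc17a7 stretch is chr7:45163671-45163920 on the plus strand and the Syn1 stretch is chrX:20921005-20921168 on the minus strand, where the 86 bases nearest the RefSeq start are left out because GENCODE places them in the transcript. All lie upstream of the first exon, except that 7 bases of the Syt1 stretch fall in the GENCODE gene.
Syt1: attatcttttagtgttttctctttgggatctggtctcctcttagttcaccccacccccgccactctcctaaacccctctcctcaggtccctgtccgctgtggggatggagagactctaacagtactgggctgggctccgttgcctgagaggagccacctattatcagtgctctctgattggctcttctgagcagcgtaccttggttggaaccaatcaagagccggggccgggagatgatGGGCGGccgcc
Slc17a7: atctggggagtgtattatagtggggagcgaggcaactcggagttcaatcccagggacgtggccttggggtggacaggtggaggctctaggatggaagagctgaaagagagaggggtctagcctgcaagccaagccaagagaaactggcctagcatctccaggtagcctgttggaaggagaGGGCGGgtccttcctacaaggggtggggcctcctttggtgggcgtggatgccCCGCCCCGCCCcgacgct
Syn1: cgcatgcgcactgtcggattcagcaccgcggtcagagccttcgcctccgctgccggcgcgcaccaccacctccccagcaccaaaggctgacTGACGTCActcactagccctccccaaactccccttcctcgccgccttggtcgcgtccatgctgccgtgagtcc
The Slc17a7 stretch holds 3 GC boxes, a pair of which lie on the opposite strand and share 1 base. The Syt1 stretch holds 1, close to the start, and none of these 3 stretches besides that of Syn1 holds a full CRE.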

How the data were processed

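The deposited raw count matrix was used. The authors aligned reads to mm10 (GRCm38), counted them per gene with HTSeq, and computed the deposited FPKM values from gene length and counts. Genes needed a CPM worth 10 counts at the median library size in at least 3 libraries, and a total count of at least 15. Libraries were scaled by TMM, written out by hand with 30% of log ratios and 5% of levels trimmed, and each comparison was fitted on its own 6 libraries with limma voom and robust variance. Adjusted p is by Benjamini-Hochberg over all genes tested. The script was tried on simulated data. edgeR, the planned main test, and DESeq2 were not run, because the layout of the matrix kept it from being registered as raw counts for them. limma voom was the planned replacement. CPM take the library size after TMM. The genes and the lists (vesicle proteins, fusion machinery, active zone, endocytosis, transporters, and markers of cell types and regions) were chosen with earlier results of these data known. Most genes named outside the 10 follow a written rule. It takes up to 4 of each list with the smallest adjusted p under 0.05 and the most abundant of each marker list by FPKM. It adds close partners of the 10 and the 5 most like them over the libraries. Exceptions are genes said above to be picked after the values were seen, and neighbours on the opposite strand. Promoter sequence is from RefSeq.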

Additional observations from a re-analysis of the deposited data

How the results depend on the processing

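Between MRL/lpr and MRL/mpj libraries all 10 genes kept a negative difference in every setting, while the counts of calls moved. With all libraries, 1553 genes were called in that comparison, 967 with a 1.5-fold change, and in MRL/lpr+MSC against MRL/mpj mice 812 and 556.

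In MRL/lpr against MRL/mpj mice, 1 gene of the list was called with all libraries. It was 3 without the low-count filter, 0 with all 9 libraries in one fit (Syt1 kept -0.54 but lost its call), and 3 with limma-trend, where 2.75% of 29355, 4.34% of 17113 and 1001 of 16697 genes were called lower. With library quality weights all 10 were called, 3 of them with a 1.5-fold change, beside 3627 genes in all and 2065 with a 1.5-fold change. A test against a 1.5-fold change called 104 genes, and 100 in MRL/lpr+MSC against MRL/mpj mice. In the latter comparison quality weights called 2072 genes, 1177 with a 1.5-fold change. limma-trend and quality weights were added after the data were seen, and edgeR and DESeq2 were not run.

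With replicate number as a replicate block, 2 of the 10 were called between MRL/lpr and MRL/mpj libraries, where 3.88% of genes were called lower, and in MRL/lpr+MSC against MRL/mpj mice 302 genes, 283 with a 1.5-fold change. Replicate numbers were not shown to pair libraries. Deviations from group means over 17113 genes had r from -0.212 to 0.359 between same-numbered libraries of different groups. The lowest was for replicate 1 of the lpr groups, and the highest for replicate 3 of MRL/mpj and MRL/lpr+MSC. Between libraries of different number r ran from -0.418 to 0.227. Whether same-numbered libraries shared a batch was not tested.

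Leaving out 1 library at a time, calls in MRL/lpr against MRL/mpj mice ran from 169 to 2890 genes, 165 to 1695 with a 1.5-fold change, and from 0 to 9 of the 10, 0 to 6 with a 1.5-fold change. In MRL/lpr+MSC against MRL/mpj mice they ran from 201 to 2749 genes, 193 to 1514 with a 1.5-fold change, and from 0 to 8 of the 10, 0 to 2 with a 1.5-fold change. Between MRL/lpr+MSC and MRL/lpr mice 0 genes were called throughout. The cause of these differences was not tested.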
